A study of Mus musculus with 12 samples.

Results

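The response of mouse microglia to oligomeric Aβ42 in cells that were also given AE1-329 was followed across 19938 genes on 6 of the 12 microarrays of the study. By their titles, 3 arrays held cells given both Aβ42 and AE1-329, and 3 held cells given AE1-329 with the vehicle of Aβ42. Aβ42 is a peptide that aggregates and forms the plaques of Alzheimer's disease, and AE1-329 is an agonist of EP4, a receptor for prostaglandin E2. Microglia, the resident macrophages of the brain, came from C57BL/6J pups on postnatal day 7, were isolated on magnetic CD11b beads and were grown for 3 days. All 6 cultures then received 100 nM AE1-329 for 6 h, together with 10 µM Aβ42 in one group and 0.4% DMSO in the other. The same number marks the same litter in both groups, so that each of 3 litters gave 1 array per group. The other 6 arrays held cells without AE1-329, given its vehicle of 0.001% ethanol with Aβ42 or with DMSO. They serve here to show where the response differed, and they also enter the estimate of the spread between replicates. These are cultured cells of postnatal day 7 pups after 1 exposure time and 1 dose.

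Aβ42 changed 4386 of the 19938 genes in AE1-329 treated microglia at an adjusted p under 0.05 (limma with Benjamini-Hochberg adjustment, 22% of the genes tested). Of these, 1948 were higher (9.77%) and 2438 were lower (12.2%). At 2-fold or more, 309 genes were higher (1.55%) and 162 were lower (0.813%), and the changes ran from -3.44 ± 0.096 log2 units for Rgs2 to 6.97 ± 0.10 for Cxcl2. Here and below, a change is a difference of group means on the log2 scale ± the standard error of the fit, with 3 arrays per group. The fit takes the spread from all 12 arrays. With only the 6 arrays compared in the fit, 2327 genes were higher and 2895 lower. The median change of all genes was 0.011 log2 units and the median standard error was 0.073. Of the 4386 genes, 4384 moved the same way in all 3 litters, and in 4369 the arrays of the 2 groups did not overlap, which held for 40.1% of all genes. These genes were called on the same arrays, so the 2 counts largely follow from the call and are no separate support. Genes at least 2-fold higher had a median difference of 1.66, 1.62 and 1.51 log2 units in litters 1, 2 and 3, and genes at least 2-fold lower had one of -1.26, -1.24 and -1.35.

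Microglia carry receptors of the innate immune system, among them Toll-like receptors and C-type lectins, and answer aggregated proteins with NF-kB, the transcription factor family that drives genes of cytokines and chemokines. Many of these stimuli also start an interferon response, in which secreted type I interferon acts back on the cells through STAT factors. EP4 couples to the stimulatory G protein and raises cyclic AMP, whose target CREB drives its own set of genes. The genes are therefore described by these routes, and then by what the cells would secrete, express on their surface or use in metabolism.

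The 12 microglia marker genes had levels between 7.82 and 13.1 log2 units averaged over the 3 AE1-329 arrays, all above the median of all genes there. Of the markers of other cells, 5 of 11 for astrocytes, 4 of 10 for the oligodendrocyte lineage, 1 of 12 for neurons, 4 of 12 for endothelial and mural cells, 3 of 9 for monocytes and border macrophages, 2 of 12 for neutrophils and 0 of 7 for lymphocytes and erythroid cells lay above that median. The highest marker was Acta2 at 11.5 log2 units for endothelial and mural cells and Mrc1 at 10.9 for monocytes and border macrophages. It was Csf3r at 10.5 for neutrophils and Cnp at 9.59 for the oligodendrocyte lineage. For astrocytes and neurons it was Aldoc at 8.33 and Snap25 at 7.70. These genes were named after their values were seen. The signal over background of a probe set is unknown, so a level near the median is no proof of expression. The share of other cells in the cultures was not measured. Replicates of a group differed by a median standard deviation of 0.065 log2 units with AE1-329 alone and 0.066 with Aβ42 added. The AE1-329 array of litter 3 stood apart: 16 genes were at least 1 log2 unit above both other AE1-329 arrays there and 13 were as far below. Of the 16, 8 are on the list of type I interferon genes described below, and 8 were called higher with Aβ42. Named genes whose change moved by over 1.5-fold without this array are given with and without it.

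Among the genes that rose were 2 chemokine genes, Cxcl2 and Cxcl3, whose promoters hold a match to the NF-kB motif GGGANTTTC, and they are set here beside 2 interferon genes, Ifit1 and Cxcl10, whose promoters hold the interferon motif GAAANNGAA. The sequences are the 250 bases before the gene start in RefSeq on mouse assembly GRCm38.p6, at chr5:90903649-90903898 on the plus strand for Cxcl2, chr5:90785851-90786100 on the plus strand for Cxcl3, chr19:34640639-34640888 on the plus strand for Ifit1 and chr5:92348890-92349139 on the minus strand for Cxcl10. Capitals mark the matches, on either strand, to the motif named for that gene. Other forms of an NF-kB site were not searched, so unmarked bases of Ifit1 and Cxcl10 are no proof that such sites are absent.
Cxcl2: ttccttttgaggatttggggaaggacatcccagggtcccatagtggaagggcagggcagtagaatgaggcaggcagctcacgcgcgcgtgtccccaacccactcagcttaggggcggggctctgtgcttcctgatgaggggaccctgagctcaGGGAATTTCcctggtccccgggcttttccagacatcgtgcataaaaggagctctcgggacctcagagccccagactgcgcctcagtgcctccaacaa
Cxcl3: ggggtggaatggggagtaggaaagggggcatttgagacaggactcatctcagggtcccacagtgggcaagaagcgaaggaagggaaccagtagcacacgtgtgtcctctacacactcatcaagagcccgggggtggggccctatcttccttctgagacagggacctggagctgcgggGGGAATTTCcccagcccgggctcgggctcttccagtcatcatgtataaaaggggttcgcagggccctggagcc
Ifit1: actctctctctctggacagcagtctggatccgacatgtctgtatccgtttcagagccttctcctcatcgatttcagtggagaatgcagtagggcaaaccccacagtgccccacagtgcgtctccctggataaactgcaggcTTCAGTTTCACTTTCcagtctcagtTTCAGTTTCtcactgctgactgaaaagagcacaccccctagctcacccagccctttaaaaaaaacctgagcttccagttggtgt
Cxcl10: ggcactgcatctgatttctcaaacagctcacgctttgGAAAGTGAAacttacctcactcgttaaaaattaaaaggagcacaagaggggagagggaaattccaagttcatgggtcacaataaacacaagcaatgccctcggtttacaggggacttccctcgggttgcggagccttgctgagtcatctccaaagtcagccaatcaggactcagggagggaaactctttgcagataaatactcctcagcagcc
The match began 97 bases before the gene start in Cxcl2 and 73 bases before it in Cxcl3, with the same 9 letters in both, and 213 bases before it in Cxcl10. Ifit1 held 3 matches, which began 109, 103 and 84 bases before its start, and the first pair shared bases.

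A promoter from 250 bases before to 50 after the start was on hand for 15614 of the 19938 genes, and both strands were searched. The NF-kB motif was found in 1.26% of these promoters, in 9 of the 235 (3.83%) of genes at least 2-fold higher with Aβ42 and in 0 of the 120 of genes at least 2-fold lower. The 9 genes were Cxcl2, Il6, Gpr84, Cxcl1, Cxcl3, Gbp5, Nfkbia, Nfkb2 and Slamf8, named here because they are the whole count. The interferon motif was found in 9.20% of all promoters, in 32 of the 235 (13.6%), in 10 of the 120 (8.33%) and in 11 of 19 (57.9%) of the type I interferon list. The cyclic AMP motif TGACGTCA was found in 2.72% of all promoters, in 11 of the 235 (4.68%) and in 2 of the 120 (1.67%). It was found in 1 of 18 (5.56%) of the list of cyclic AMP and CREB targets. Matches of the NF-kB and interferon motifs shared bases in 4 genes, and no other pair of motifs did. These shares describe letters in a window and were not tested.

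The 15 genes with the largest rise hold secreted mediators, surface receptors and enzymes. Cxcl2, a chemokine that attracts neutrophils, was at 5.67, 5.43 and 5.46 log2 units in the AE1-329 arrays of litters 1, 2 and 3 and at 12.59, 12.39 and 12.49 with Aβ42 added. No array of one group came near the other, and the rise was 6.97 ± 0.10 log2 units, or 125-fold (adjusted p = 4.59e-13). Saa3, an acute-phase protein, rose by 5.38 ± 0.18 log2 units from 6.28, 7.07 and 7.25 to 12.26, 12.13 and 12.37. Clec4e, the C-type lectin Mincle, was at 7.17, 7.18 and 7.59 without and 12.54, 12.51 and 12.56 with Aβ42 and rose by 5.23 ± 0.11. These 2 genes were also separated in every litter by more than the spread within a group.

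**Figure D1:**
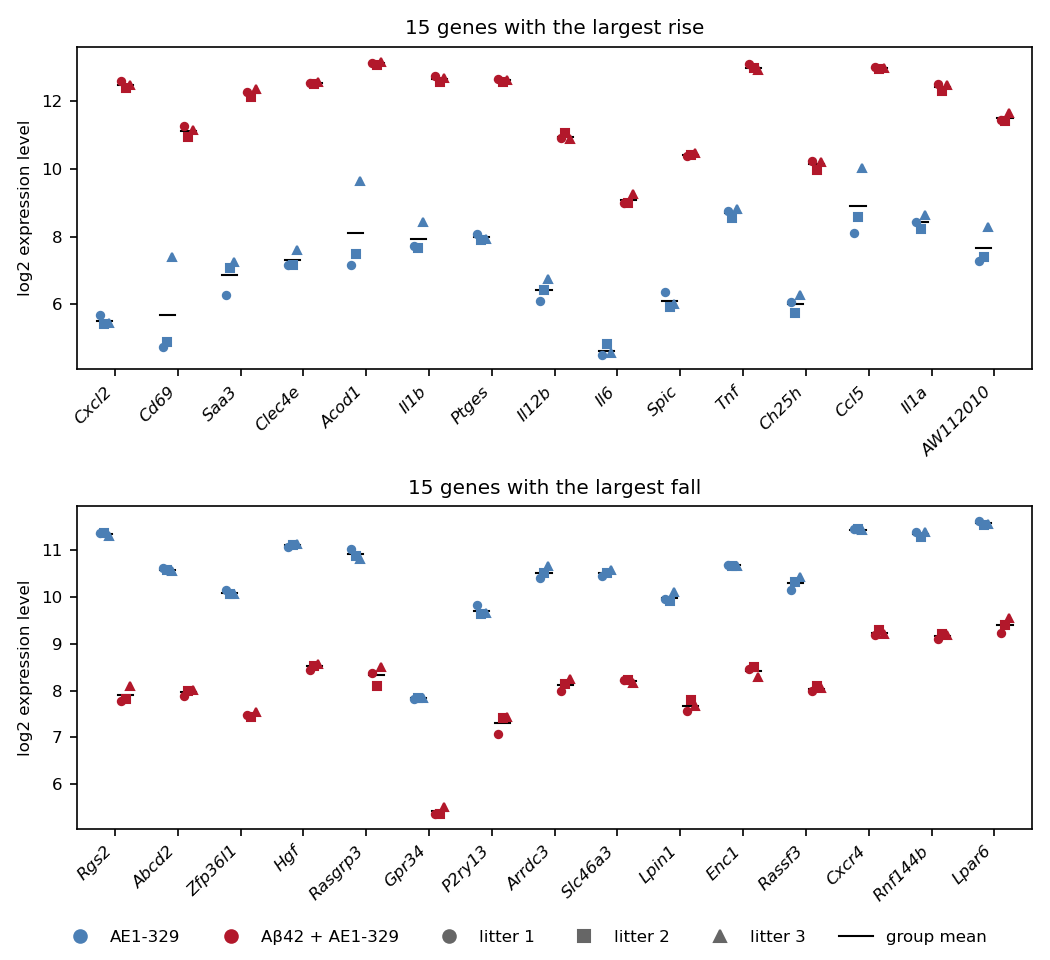
Log2 expression level of the 15 genes with the largest rise (top) and the 15 with the largest fall (bottom) in each array of AE1-329 treated microglia without (blue) and with (red) Aβ42; symbols mark the litter and bars the group mean of 3 arrays. The groups do not overlap in any of the 30 genes, and the AE1-329 array of litter 3 (blue triangle) lies above both others for Cd69, Acod1 and Ccl5.

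Cytokine genes followed. Il1b, the precursor of interleukin-1β, was at 7.73, 7.66 and 8.43 log2 units in AE1-329 cells and at 12.74, 12.57 and 12.68 with Aβ42, a rise of 4.72 ± 0.16. Tnf, the gene of tumour necrosis factor, went from 8.76, 8.54 and 8.81 to 13.09, 12.97 and 12.92 and rose by 4.29 ± 0.087 (adjusted p = 3.76e-12). Il6 stood at 4.51, 4.82 and 4.56 and reached 8.98, 8.98 and 9.25, a rise of 4.44 ± 0.12. For these 3 cytokines, the lowest array with Aβ42 was several log2 units above the highest array without it. Il12b, a subunit of interleukins that drive T helper cells, rose by 4.53 ± 0.14, and Il1a, the other agonist of the interleukin-1 receptor, by 3.99 ± 0.16.

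Enzymes and surface proteins made up much of the rest of these 15 genes. Ptges, the inducible prostaglandin E synthase that acts after cyclooxygenase, was at 8.08, 7.91 and 7.94 and then at 12.67, 12.57 and 12.62, and rose by 4.64 ± 0.11 log2 units. Ch25h, which hydroxylates cholesterol, rose by 4.12 ± 0.15. Spic, a transcription factor of iron-handling macrophages, rose by 4.31 ± 0.13, and AW112010, a transcript known from inflamed macrophages, by 3.84 ± 0.21. In 3 further genes the AE1-329 array of litter 3 lay at least 1 log2 unit above the other 2. Acod1, which makes itaconate, was at 7.15, 7.48 and 9.65 before and 13.13, 13.08 and 13.17 after Aβ42 and rose by 5.03 ± 0.45. Cd69, a lectin of activated leukocytes, was at 4.75, 4.89 and 7.40 and 11.26, 10.93 and 11.15, and Ccl5, a T cell chemokine, at 8.11, 8.59 and 10.03 and 13.02, 12.96 and 12.98. The groups did not overlap in any of the 3 genes, and the rises of Cd69 and Ccl5 were 5.43 ± 0.49 and 4.08 ± 0.34. Without the AE1-329 array of litter 3 the rises of Acod1, Cd69 and Ccl5 were 5.81, 6.29 and 4.64.

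The NF-kB list, of subunits, inhibitors and adaptors of the pathway, rose nearly throughout. Of 21 measured members 18 were higher and 0 lower, against 9.77% and 12.2% of all genes, with a median change of 1.89 log2 units against 0.011 over all genes. Nfkbiz rose by 3.46 ± 0.084. The feedback inhibitors Nfkbie, Tnfaip3 (A20, which edits ubiquitin chains) and Nfkbia (IkBα) rose by 3.00 ± 0.076, 2.83 ± 0.056 and 2.55 ± 0.071. Tnfaip3 was at 8.50, 8.46 and 8.55 log2 units in AE1-329 cells and at 11.40, 11.31 and 11.29 with Aβ42, so that its 3 arrays per group lay close together. The adaptor Traf1 rose by 3.48 ± 0.11 and the kinase Ikbke by 2.76 ± 0.096. The 3 members that did not pass were Cyld, Nfkbil1 and Ikbkb, at 0.083, 0.041 and -0.013. They were named after their values were seen. The shares of all genes, 9.77% higher and 12.2% lower, are the background for each list count below that names no other fit. With the litter as a replicate block 2136 of all genes were higher and 2862 lower, and with only the 6 arrays fitted 2327 and 2895. Without single arrays of these groups 1589 to 1715 were higher and 1907 to 2097 lower. With only genes above the median level tested, 1866 of them were higher and 2283 lower, which are larger shares than 9.77% and 12.2%. Where a list below has 0 genes in one direction, 0 members passed an unadjusted p of 0.05 there as well, except for 1 CC chemokine that was lower and 1 astrocyte marker that was higher.

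**Figure D2:**
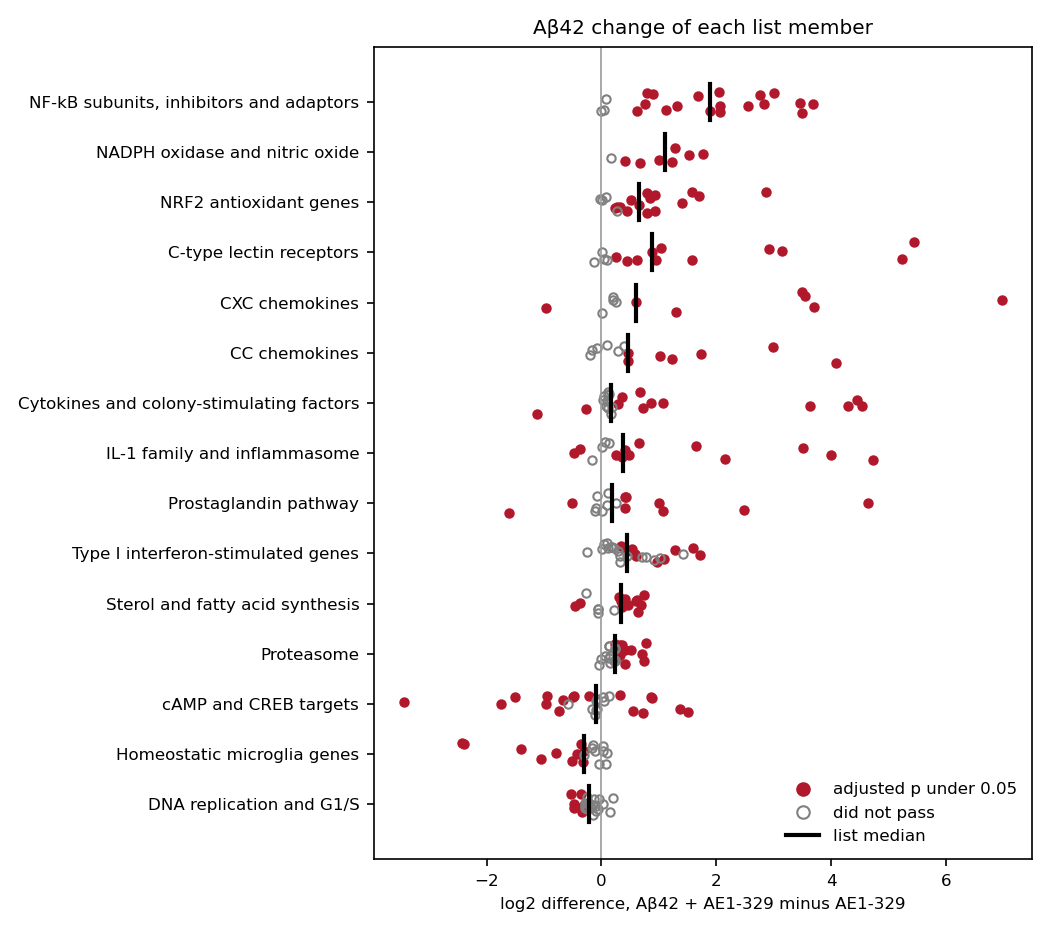
Log2 difference between Aβ42 with AE1-329 and AE1-329 alone for each measured member of 15 gene lists; filled points passed an adjusted p of 0.05, open points did not, and bars mark the list median. The NF-kB list has the highest median (1.89), the homeostatic list the lowest (-0.31), and single members of several lists lie far from their list's median.

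Receptors that sense microbes and damage moved both ways. Of 20 genes of Toll-like receptors and their adaptors, 8 rose and 5 fell, with a median of 0.026. The surface receptor Tlr2 rose by 2.44 ± 0.049 and its partner Tlr1 by 2.13 ± 0.058, as did the inhibitory kinase Irak3, by 2.0 ± 0.057. The endosomal RNA receptors Tlr7 and Tlr8 fell by 1.05 ± 0.059 and 1.21 ± 0.083. Tlr2 stood at 9.33, 9.30 and 9.37 in AE1-329 cells and 11.74, 11.74 and 11.83 with Aβ42, and Tlr7 at 11.52, 11.38 and 11.54 and 10.39, 10.43 and 10.47, without overlap in either gene. Of 15 C-type lectin receptors, 11 rose and 0 fell (median 0.88), among them Clec5a by 2.91 ± 0.085 and Olr1, a receptor for oxidised lipoprotein, by 3.15 ± 0.13. Clec7a (dectin-1) rose by only 0.26 ± 0.058.

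Of 16 genes of the interleukin-1 family and the inflammasome, 10 rose and 2 fell, with a median of 0.38. Nlrp3, the sensor that assembles the inflammasome, was at 8.12, 8.24 and 8.48 log2 units without and 11.86, 11.73 and 11.77 with Aβ42, a rise of 3.505 ± 0.087. Casp4, the inflammatory caspase that senses lipopolysaccharide in the cytosol, rose by 2.15 ± 0.11. The receptor antagonist Il1rn rose by 1.64 ± 0.12 and the receptor chain Il1rap by 0.47 ± 0.056. The sensor, the 2 agonists and the antagonist thus all rose, while Pycard, the adaptor of the inflammasome, fell by 0.38 ± 0.085 and Aim2, a DNA sensor, by 0.49 ± 0.12. These last 2 were named because they are the whole count of fallers.

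Among 22 cytokines and colony-stimulating factors 10 rose and 2 fell, with a median of 0.17, and the list was split between a few large rises and many genes near 0. Besides Tnf, Il6 and Il12b, the T cell costimulator Tnfsf9 rose by 3.62 ± 0.10 and Csf3, the granulocyte growth factor, by 1.07 ± 0.076. Il10, the anti-inflammatory cytokine, was at 4.75, 4.85 and 5.02 in AE1-329 cells and at 5.57, 5.23 and 5.99 with Aβ42. The groups did not overlap, and Il10 rose by 0.72 ± 0.14 (adjusted p = 0.00236). Il15, which sustains natural killer cells, fell by 1.12 ± 0.12 from 8.88, 8.99 and 9.25 to 7.87, 7.75 and 8.14. With only genes above the median level tested, which left out dim ones, 5 of the cytokine genes still tested were higher and 1 lower. Without the Aβ42 plus AE1-329 array of litter 1, 1 fell.

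Of 11 CXC chemokine genes 6 rose and 1 fell (median 0.60). The neutrophil chemokines Cxcl1 and Cxcl3 rose by 3.70 ± 0.095 and 3.55 ± 0.14 log2 units beside Cxcl2. Cxcl3, printed above for its promoter, was at 6.22, 6.06 and 6.13 without and 9.73, 9.50 and 9.84 with Aβ42. Cxcl16 rose by 1.30 ± 0.084 and Cxcl14 fell by 0.97 ± 0.062. Of 13 CC chemokine genes 7 rose and 0 fell (median 0.46), or 1 fell with the replicate block or without the Aβ42 plus AE1-329 array of litter 2. Among them were Ccl4, up by 2.99 ± 0.098, the monocyte chemokine Ccl2 by 1.73 ± 0.16, Ccl22 by 1.02 ± 0.10 and Ccl3 by 0.47 ± 0.064. Ccl2 was at 8.72, 9.29 and 9.38 in AE1-329 cells and at 10.62, 10.97 and 10.98 with Aβ42. Among the receptors, the decoy-like receptor Ccrl2 rose by 2.50 ± 0.087 and Ccr7, which guides cells to lymph nodes, by 0.68 ± 0.072. Cxcr4, the receptor of Cxcl12, fell by 2.21 ± 0.052 from 11.44, 11.45 and 11.43 to 9.20, 9.29 and 9.21.

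The calls of interferon-stimulated genes depended on which arrays were compared. Of 27 measured genes of the type I interferon list, 10 were higher and 0 lower, with a median change of 0.44 log2 units. Oasl1, a relative of the RNA-sensing synthetases, rose by 1.59 ± 0.26, Parp14 by 1.09 ± 0.13, Ifi35 by 0.61 ± 0.15 and Ifih1, the RNA sensor MDA5, by 0.54 ± 0.11. Ifit1, which binds foreign RNA and whose promoter is printed above, was at 7.58, 8.06 and 9.86 in AE1-329 cells and at 9.92, 10.16 and 10.58 with Aβ42. Its litter 3 array without Aβ42 lay just below the lowest array with it, and the rise was 1.72 ± 0.44 (adjusted p = 0.0126). Ifit1 missed the threshold without the AE1-329 array of litter 1 or 2 or the Aβ42 plus AE1-329 array of litter 3, and with a mean-variance trend in the fit, with adjusted p of up to 0.0614 in all. Without the AE1-329 array of litter 3 its rise was 2.40.

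Averaged over the 27 genes, the AE1-329 arrays stood at 8.20, 8.42 and 9.15 log2 units in litters 1, 2 and 3 and the arrays with Aβ42 at 8.94, 9.11 and 9.48. Litter 3 was highest in both groups, and its 2 arrays were the closest pair. Without the AE1-329 array of litter 3, 18 of the 27 genes were higher and the median change was 0.68. Without the AE1-329 array of litter 1 or 2 the count was 5 or 6, and without the Aβ42 plus AE1-329 array of litter 3 it was 5. With the litter as a replicate block 19 were higher and 1 lower. In cells without AE1-329, the same list stood at 8.18, 8.46 and 8.77 with vehicles and at 9.85, 10.02 and 10.19 with Aβ42, where 26 of 27 genes were higher with a median change of 1.33.

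**Figure D3:**
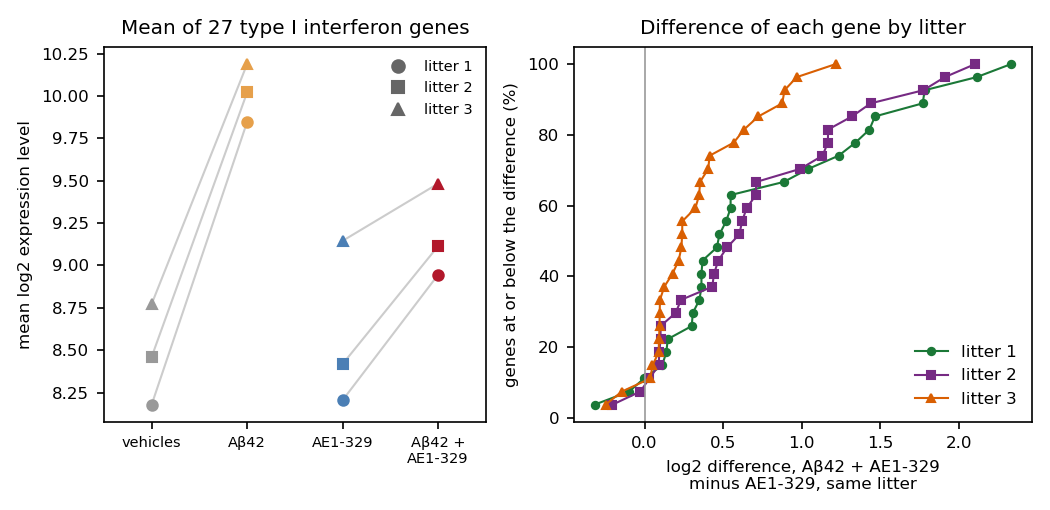
Left, mean log2 expression level of the 27 genes of the type I interferon list in each array, with lines joining arrays of one litter with and without Aβ42; right, the cumulative share of these genes by their log2 difference with Aβ42 in AE1-329 treated microglia, one line per litter. The AE1-329 array of litter 3 (9.15) lies above the other 2, and the differences of litter 3 are the smallest.

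The difference between the 2 Aβ42 responses, tested as an interaction, was negative for all 27 interferon genes, with a median of -0.89 log2 units, and passed for 6. Over all genes, 0.918% had a negative difference that passed. Without the AE1-329 array of litter 3 the median was -0.64 and 4 passed. Without an Aβ42 plus AE1-329 array of litter 1 or 2, or an Aβ42 array of litter 2 or 3, 2 or 3 passed. With the replicate block 23 of the 27 passed. Mx2, an antiviral GTPase, rose by 0.97 ± 0.21 with AE1-329 and by 2.53 ± 0.21 without it, a difference of -1.56 ± 0.30 (adjusted p = 0.0176). Leaving out either Aβ42 plus AE1-329 array of litter 1 or 2, or the Aβ42 array of litter 2 or 3, brought the adjusted p of Mx2 above the threshold, to between 0.0532 and 0.0550. Ifih1 rose by 0.54 ± 0.11 against 1.52 ± 0.11, a difference of -0.99 ± 0.16 (adjusted p = 0.0049). Irf7, the factor that amplifies interferon production, changed by 0.47 ± 0.32 (adjusted p = 0.38) against 1.69 ± 0.32, and the difference of -1.22 ± 0.45 did not pass (adjusted p = 0.292). It passed with the replicate block, at 0.0159.

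Other genes of the interferon routes also moved both ways. Cxcl10, an interferon-driven chemokine, was at 7.29, 7.61 and 10.92 log2 units in AE1-329 cells and at 12.01, 12.04 and 12.25 with Aβ42, and rose by 3.49 ± 0.67. Its rise was 4.65 without the AE1-329 array of litter 3 and 2.84 without that of litter 1. Irf1, the factor induced by interferon gamma and NF-kB, rose by 0.82 ± 0.10 on its brightest probe set, whereas its other probe set changed by -0.029 with an adjusted p of 0.840. The 2 probe sets of Irf1 thus disagreed. Socs3, a feedback inhibitor of cytokine receptors, rose by 3.601 ± 0.14, or by 1.55 on its other probe set, and Jak2 by 1.51 ± 0.10, while Stat3 fell by 0.53 ± 0.044 and Irf8, a lineage factor of microglia, by 1.09 ± 0.063. Of 9 interferon gamma inducible GTPases and related genes 3 rose and 1 fell: Gbp5 rose by 3.15 ± 0.25, Gbp3 by 1.25 ± 0.21 and Gbp9 fell by 0.77 ± 0.14. The third riser was Gbp7, by 0.63 ± 0.20, whose arrays overlapped between the groups and which missed the threshold without any one of the 6 arrays other than the AE1-329 array of litter 3.

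Genes for contact with T cells moved both ways. Of 13 costimulatory and checkpoint ligands 7 rose and 2 fell (median 0.33). Cd40 was at 7.28, 7.29 and 7.50 log2 units in AE1-329 cells and at 9.84, 9.99 and 10.02 with Aβ42, and rose by 2.59 ± 0.076. Icosl rose by 2.65 ± 0.088 and Cd274, the inhibitory ligand PD-L1, by 1.30 ± 0.088. The fallers were Vsir, by 1.19 ± 0.064, and Havcr2, by 1.24 ± 0.087, both inhibitory. Of 13 genes of antigen presentation 3 rose and 1 fell. The class II genes H2-Ab1 and Cd74 rose by 0.63 ± 0.082 and 0.40 ± 0.078, and H2-DMa, which helps to load class II molecules, fell by 0.22 ± 0.064. H2-DMa missed the threshold without the Aβ42 plus AE1-329 array of litter 2 or 3 or the AE1-329 array of litter 1 or 3. Among 17 integrins and adhesion molecules 8 rose and 2 fell, or 1 without the Aβ42 plus AE1-329 array of litter 1 or the AE1-329 array of litter 3. Icam1 rose by 3.02 ± 0.079, Vcam1 by 1.90 ± 0.088 and the fibronectin receptor chain Itga5 by 1.77 ± 0.072, while Cytip, which curbs adhesion of leukocytes, fell by 1.89 ± 0.10.

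The 15 genes with the largest fall were mixed in function. Rgs2, which shuts off G protein signalling, was at 11.36, 11.38 and 11.30 log2 units in AE1-329 cells and at 7.78, 7.83 and 8.10 with Aβ42. It fell by 3.44 ± 0.096, the largest fall of all genes (adjusted p = 4.3e-11). Abcd2, a transporter of fatty acids into peroxisomes, fell by 2.62 ± 0.099 from 10.63, 10.57 and 10.56 to 7.89, 7.99 and 8.02. Zfp36l1, which promotes decay of AU-rich mRNAs, fell by 2.62 ± 0.14, and the growth factor Hgf by 2.59 ± 0.077. Others of the 15 were Rasgrp3 at -2.57, Lpar6, a receptor of lysophosphatidic acid, at -2.18, and Arrdc3, an arrestin-like adaptor, at -2.40. Lpin1, a phosphatidate phosphatase, stood at -2.31, the transporter Slc46a3 at -2.31, and Enc1, Rassf3 and Rnf144b at -2.26, -2.25 and -2.19. In these bulk samples fewer cells of a type and less RNA per cell cannot be told apart.

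Genes that mark resting microglia fell or did not pass. Of 19 homeostatic genes 0 rose and 10 fell, against 9.77% and 12.2% of all genes, with a median of -0.31. The receptor Gpr34 was at 7.82, 7.85 and 7.85 log2 units in AE1-329 cells and at 5.37, 5.37 and 5.52 with Aβ42, and fell by 2.42 ± 0.081. P2ry13 fell by 2.40 ± 0.090 and P2ry12, the receptor that steers microglial processes towards ATP, by 1.06 ± 0.11 from 8.64, 8.62 and 8.49 to 7.55, 7.53 and 7.50. The transcription factor Mef2c fell by 1.40 ± 0.061, the phagocytic receptor Mertk by 0.80 ± 0.056, the ATP-degrading enzyme Entpd1 by 0.51 ± 0.066 and the fractalkine receptor Cx3cr1 by 0.43 ± 0.097. The other 9 genes did not pass, and they include Tmem119 at 0.097 and Csf1r at 0.020, which were named after their values were seen. The change thus differed within the list, from -2.42 for Gpr34 to 0.097 for Tmem119.

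Receptors for uptake and proteases also split. Of 21 scavenger and phagocytic receptors 4 rose and 6 fell (median -0.14). Marco, a scavenger receptor, was at 6.61, 6.51 and 6.70 and then at 8.49, 8.43 and 8.34, and rose by 1.81 ± 0.068, and the inhibitory Fc receptor Fcgr2b rose by 0.44 ± 0.066, whereas the activating Fc receptor Fcgr3 fell by 0.37 ± 0.050. Of 11 complement genes C5ar1 alone passed, with a rise of 0.32 ± 0.054, which is near the 9.77% of all genes that rose. Of 16 proteases that process or degrade amyloid 5 rose and 3 fell, or 5 with the replicate block. The matrix metalloproteinases Mmp14, Mmp9 and Mmp13 rose by 2.44 ± 0.090, 2.21 ± 0.13 and 1.63 ± 0.12. The sheddases went apart: Adam17, which releases tumour necrosis factor, rose by 0.65 ± 0.051, and Adam10 fell by 0.48 ± 0.055. Of 19 disease-associated microglia genes 2 rose and 3 fell, near the shares of all genes (9.77% and 12.2%), with Cst7 up by 0.58 ± 0.087 and Ank down by 0.69 ± 0.084. The 3 falls became 1 without the AE1-329 array of litter 1 or 3 or the Aβ42 plus AE1-329 array of litter 1 or 2.

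Targets of cyclic AMP moved in both directions. Of 27 measured genes 7 rose and 10 fell, with a median of -0.087. Nr4a2, an orphan nuclear receptor and early CREB target, was at 10.11, 10.22 and 10.32 log2 units in AE1-329 cells and at 8.48, 8.55 and 8.38 with Aβ42, and fell by 1.75 ± 0.11. Beside Rgs2 and Nr4a2, the phosphodiesterases Pde3b and Pde10a, which break down cyclic nucleotides, fell by 0.96 ± 0.064 and 0.94 ± 0.057. The members that rose include Cebpb, a transcription factor of inflamed macrophages, by 1.37 ± 0.074, and Junb by 0.87 ± 0.060. Of 21 genes of AP-1, EGR factors and dual-specificity phosphatases 12 rose and 1 fell (median 0.52). The phosphatases that switch off MAP kinases led: Dusp16 rose by 2.60 ± 0.056, Dusp4 by 1.60 ± 0.12 and Dusp2 by 1.43 ± 0.088. Ier3, an early response gene, rose by 1.21 ± 0.077.

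Of 12 regulators of mRNA stability 6 rose and 2 fell. The endonuclease genes Zc3h12c and Zc3h12a (regnase-1), which cut cytokine mRNAs, rose by 2.91 ± 0.069 and 2.48 ± 0.079 and Zfp36 (tristetraprolin) by 0.46 ± 0.071. Its relatives Zfp36l1 and Zfp36l2 fell, Zfp36l1 as given above and Zfp36l2 by 1.04 ± 0.070. Zc3h12a was at 8.36, 8.07 and 8.34 without and 10.80, 10.66 and 10.75 with Aβ42, and Zfp36l1 at 10.15, 10.07 and 10.06 and 7.47, 7.43 and 7.53. Among 17 genes of death receptors and apoptosis 7 rose and 3 fell. The caspase inhibitor Cflar rose by 1.56 ± 0.076, the death receptor Fas by 1.89 ± 0.11 and Tnfrsf1b by 1.00 ± 0.085, while the killer proteins Bcl2l11 (Bim) and Pmaip1 (Noxa) fell by 0.73 ± 0.048 and 0.64 ± 0.067.

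Of 19 myeloid transcription factors 8 rose and 6 fell. Ets2 rose by 1.90 ± 0.058 and Cebpd by 1.47 ± 0.11 beside Spic and Cebpb, and the fallers include Mef2c and Irf8, given above. Of 16 growth and trophic factors 1 rose, Pdgfb by 0.58 ± 0.11, and 3 fell. The largest of the falls was that of Hgf, which was at 11.06, 11.10 and 11.14 log2 units in AE1-329 cells and at 8.44, 8.53 and 8.58 with Aβ42. Of 19 genes of the alternative activation list 6 rose and 2 fell, with a median of -0.00044. As a receptor that amplifies inflammation is among the rises, their number is no measure of alternative activation. Trem1, a receptor that amplifies inflammation, rose by 1.63 ± 0.13, while Pparg, a lipid-sensing nuclear receptor, fell by 0.90 ± 0.15 and Socs2 by 0.50 ± 0.077. On its other probe set Socs2 fell by 1.31. With only genes above the median level tested, 3 of the genes of this list still tested were higher and 1 lower.

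Genes that make oxidants and genes that defend against them rose together. Of 8 genes of the NADPH oxidase and nitric oxide synthesis 7 rose and 0 fell, with a median of 1.11. Nos2, the inducible nitric oxide synthase, was at 6.67, 6.73 and 6.79 and then at 7.91, 8.001 and 7.95, and rose by 1.22 ± 0.075. Gch1, which makes its cofactor, rose by 1.76 ± 0.11, the oxidase subunits Ncf4 and Ncf1 by 1.52 ± 0.14 and 0.99 ± 0.068, the proton channel Hvcn1 by 1.27 ± 0.087 and the catalytic subunit Cybb by 0.42 ± 0.055. Of 19 NRF2 antioxidant genes 15 rose and 0 fell, with a median of 0.64. Slc7a11, the cystine importer, rose by 2.87 ± 0.11 from 10.29, 9.89 and 10.27 to 13.05, 12.99 and 13.004. Thioredoxin reductase Txnrd1 rose by 1.69 ± 0.068, glutathione reductase Gsr by 1.57 ± 0.057, sulfiredoxin Srxn1 by 1.41 ± 0.051 and heme oxygenase Hmox1 by 0.93 ± 0.069.

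In the prostaglandin pathway 7 of 16 genes rose and 2 fell, and they stand in the order of the pathway. Pla2g4a, the phospholipase that frees arachidonate, rose by 1.00 ± 0.062. Ptgs2, the inducible cyclooxygenase, was at 10.22, 9.95 and 9.31 log2 units in AE1-329 cells and at 12.43, 12.24 and 12.26 with Aβ42, and rose by 2.48 ± 0.23. Ptges, described above, rose by 4.64 ± 0.11, and Hpgd, the enzyme that inactivates prostaglandins, fell by 1.61 ± 0.064 from 12.22, 12.19 and 12.24 to 10.47, 10.65 and 10.71. Tbxas1, the thromboxane synthase, fell by 0.52 ± 0.059. Among the receptors, Ptger4, the EP4 receptor that AE1-329 binds, was at 8.20, 8.08 and 8.05 and 8.44, 8.57 and 8.54 and rose by 0.41 ± 0.070 (adjusted p = 0.000766). Ptger2, the EP2 receptor, changed by 0.12 ± 0.087 and did not pass (adjusted p = 0.426), and its arrays overlapped. The prostacyclin receptor Ptgir rose by 1.08 ± 0.11.

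Metabolic genes changed in several places. Of 18 genes of glycolysis and hypoxia 5 rose and 0 fell, or 8 rose when only the 6 arrays were fitted. Pfkfb3, which makes the activator of phosphofructokinase, was at 9.07, 8.88 and 9.09 and 10.22, 10.17 and 10.28 and rose by 1.21 ± 0.062. The hypoxia factor Hif1a rose by 1.12 ± 0.061, the glucose transporter Slc2a1 by 1.27 ± 0.11, Pfkl by 0.83 ± 0.10 and Bnip3 by 0.43 ± 0.10. Of 9 genes of itaconate and arginine metabolism 4 rose and 1 fell. Beside Acod1, the arginine transporter Slc7a2 rose by 2.55 ± 0.067, the mitochondrial arginase Arg2 by 1.496 ± 0.096 and Odc1, which starts polyamine synthesis, by 1.69 ± 0.19. Sat1, which breaks polyamines down, fell by 0.61 ± 0.052.

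Of 17 genes of sterol and fatty acid synthesis 10 rose and 2 fell, with a median of 0.35. The falls were 1 without the Aβ42 plus AE1-329 array of litter 2 or 3 or the AE1-329 array of litter 1 or 3. Hmgcs1, Sqle and Cyp51, enzymes of cholesterol synthesis, rose by 0.69 ± 0.056, 0.63 ± 0.062 and 0.62 ± 0.12, as did the sterol sensor Insig1, by 0.60 ± 0.063, and the factor Srebf2, by 0.41 ± 0.071. Fads1, a desaturase, fell by 0.47 ± 0.062. Hmgcs1 was at 10.29, 10.30 and 10.31 without and 10.99, 11.00 and 10.97 with Aβ42, without overlap. Among 17 genes of lipid handling 4 rose and 5 fell, and the rises were 2 without the AE1-329 array of litter 2. Besides Ch25h, Nr1h3 (LXRα) rose by 1.25 ± 0.13. The sterol exporter Abcg1 fell by 0.75 ± 0.13 and Dgat1, which makes triglyceride, by 0.58 ± 0.078.

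Of 26 proteasome genes 13 rose and 0 fell (median 0.24), with Psme2, Psma6 and Psmd11 up by 0.78 ± 0.062, 0.74 ± 0.075 and 0.71 ± 0.074. Of 18 genes of ribosome biogenesis 7 rose and 0 fell (median 0.21), with Myc up by 1.05 ± 0.091 and Gnl3 by 0.50 ± 0.070. Of 20 genes of the unfolded protein and ATF4 responses 6 rose and 3 fell. Ppp1r15a, which restarts translation, rose by 1.24 ± 0.063, Herpud1 by 1.07 ± 0.066 and the chaperone Hspa5 by 0.40 ± 0.047, and Psat1, of serine synthesis, fell by 0.54 ± 0.058. The largest change in these 3 lists, that of Ppp1r15a, ran from 8.16, 8.08 and 8.25 to 9.48, 9.36 and 9.37 log2 units.

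Of 23 genes of DNA replication and the G1/S step of the cell cycle 0 rose and 6 fell, against 9.77% and 12.2% of all genes, with a median of -0.21. As a brake on the cycle is among the falls, their number is no measure of replication. E2f8 fell by 0.52 ± 0.095, Cdkn1b, a brake on the cell cycle, by 0.48 ± 0.073, and the helicase subunits Mcm7 and Mcm6 by 0.48 ± 0.16 and 0.33 ± 0.11. The count was 3, a share near that of all genes, without the Aβ42 plus AE1-329 array of litter 1 or 3 or without the AE1-329 array of litter 2, and 12 with the replicate block. The helicase genes passed narrowly, with adjusted p of 0.0442 and 0.0465, and Mcm7 missed the threshold without any one of the 6 arrays other than the AE1-329 array of litter 1. Mcm6 missed it without the Aβ42 plus AE1-329 array of litter 1 or 3 or the AE1-329 array of litter 2 or 3. Of 19 mitosis genes Bub1b fell by 0.50 ± 0.14 and Mki67, the proliferation marker Ki-67, rose by 0.29 ± 0.091, and with the block 7 fell and 1 rose. Bub1b missed the threshold without the Aβ42 plus AE1-329 array of litter 1 or the AE1-329 array of litter 2 or 3, and Mki67 without the Aβ42 plus AE1-329 array of litter 2 or 3 or the AE1-329 array of litter 1.

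Few markers of other cells passed, where 22% of all genes did. None of 11 astrocyte, 12 neuron and 7 lymphocyte and erythroid markers passed limma's test, whereas with the replicate block 3 neuron markers were lower and 2 astrocyte markers passed. Of 10 oligodendrocyte lineage markers Mbp fell by 0.36 ± 0.062 and Cnp by 0.41 ± 0.11. Cnp missed the threshold without the array of litter 2 in either group. Of 12 endothelial and mural markers Kdr fell by 1.14 ± 0.10 and Pecam1 by 0.31 ± 0.077, and with the block 3 fell and 1 rose. Of 12 neutrophil markers Lcn2, an iron-scavenging protein that macrophages also make, rose by 1.89 ± 0.30, and the receptor Csf3r fell by 0.34 ± 0.069. Of 9 markers of monocytes and border macrophages Pf4 rose by 0.31 ± 0.081 and F13a1 fell by 0.25 ± 0.071. Pf4 missed the threshold without the Aβ42 plus AE1-329 array of litter 3 or the AE1-329 array of litter 1, and F13a1 without any one of the 6 arrays. What other cells contribute to the other results was not tested.

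Without AE1-329, Aβ42 raised 2140 genes and lowered 2960 (25.6% of all genes in total). The 2 responses share litters and the estimate of the spread but no array. Of the 1948 genes higher with AE1-329, 1452 were also higher without it, which is 74.5% of the first list and 67.9% of the second. Of the 2438 lower genes, 1959 were lower in both, or 80.4% and 66.2%. These sizes and shares depended on the fit. With each response fitted on its own 6 arrays, 2327 genes were higher with AE1-329 and 1598 without it. The shared genes were then 55.7% of the first list and 81.0% of the second. For lower genes the counts were 2895 and 2349, with shares of 64.0% and 78.8%. Which response had more genes called thus differed between the fits. Over all 19938 genes, which are not independent replicates, the 2 changes correlated with a Pearson r of 0.894. In opposite directions were 12 genes higher with and lower without AE1-329, and 14 the other way round. The 341 genes (1.71%) at least 2-fold higher without AE1-329 rose there by a median of 1.61 log2 units and with AE1-329 by 1.43, and 318 of them were called higher in both. The 309 genes at least 2-fold higher with AE1-329 had a median of 1.58 in both responses. Each of these sets was chosen on one of the responses, which therefore tends to be the larger.

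The difference between the responses passed for 389 genes (1.95%), of which 206 (1.03%) had a higher and 183 (0.918%) a lower change with AE1-329. With the replicate block the counts were 344 and 333. Of the 389, 64 rose less with AE1-329 and 58 rose more, counting genes called in both responses, and 51 fell less and 32 fell more. A further 35 were called higher and 53 lower only without AE1-329, and 32 higher and 38 lower only with it, and 26 were called in opposite directions. The difference was 2-fold or more in 23 genes each way. Vehicle arrays, which enter every difference, had a median standard deviation of 0.109 log2 units between replicates. In that group 18 genes were at least 1 log2 unit above both other arrays in litter 1, and 12 were as far below in litter 3. The counts also moved without single arrays. Without the vehicle array of litter 1 the higher count was 321, and without the AE1-329 array of litter 2 it was 119. The lower count was 118 without the Aβ42 array of litter 3 and 120 without the Aβ42 array of litter 2 or the Aβ42 plus AE1-329 array of litter 2.

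**Figure D4:**
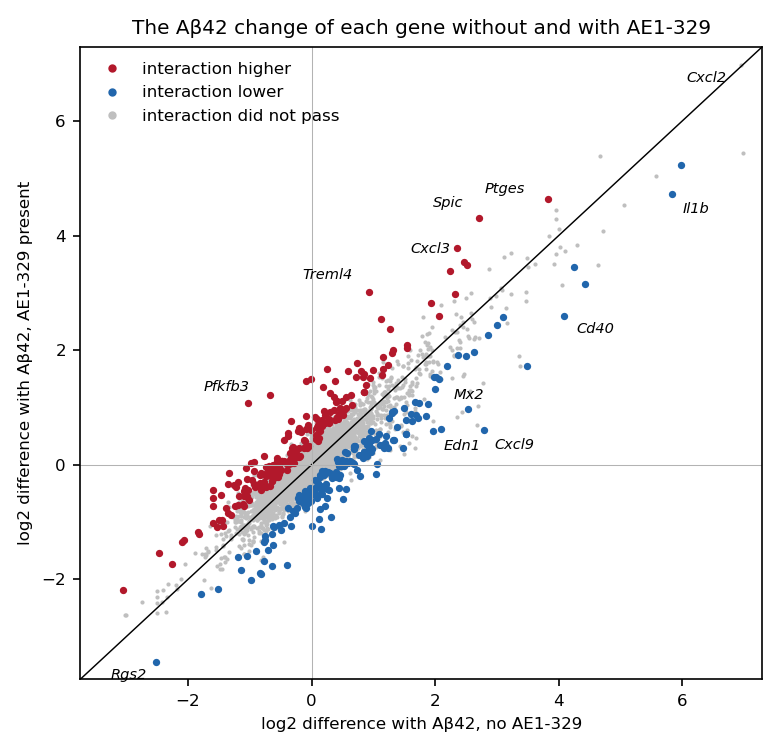
Log2 difference with Aβ42 in cells without AE1-329 (horizontal) and with AE1-329 (vertical) for each of 19938 genes; the line marks equal changes, and coloured genes passed the interaction test, 206 above the line (red) and 183 below it (blue). Most genes lie along the line, with Cxcl2 at its upper end, while Cxcl9 and Edn1 lie far below it and Treml4 and Pfkfb3 above it.

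The genes whose change was most reduced with AE1-329 include targets of interferon and genes of vessels and matrix. Cxcl9, a chemokine driven by interferon gamma, was at 6.66, 6.71 and 7.27 log2 units with AE1-329 alone and at 7.54, 7.28 and 7.62 with both, and at 6.94, 6.55 and 6.57 with vehicles and 9.65, 9.27 and 9.50 with Aβ42. It rose by 0.60 ± 0.16 with AE1-329 and by 2.78 ± 0.16 without it, a difference of -2.18 ± 0.23 (adjusted p = 0.000286). The rise in AE1-329 treated cells missed the threshold without the array of litter 1 in either group, the Aβ42 plus AE1-329 array of litter 3 or the AE1-329 array of litter 2. Cd40 rose by 2.59 ± 0.076 against 4.08 ± 0.076, a difference of -1.49 ± 0.11, and Adamts4, an aggrecan-cleaving protease, by 1.73 ± 0.14 against 3.49 ± 0.14, a difference of -1.76 ± 0.20. Edn1, the precursor of endothelin-1, rose by 0.58 ± 0.13 against 1.97 ± 0.13, a difference of -1.39 ± 0.19, and Olr1 by 3.15 ± 0.13 against 4.43 ± 0.13, a difference of -1.28 ± 0.19. In these 4 genes the rise was present in both settings and smaller with AE1-329.

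In 3 of the 10 genes with the lowest difference, Aβ42 lowered the level in AE1-329 treated cells. Nr4a2 was at 8.33, 7.85 and 7.91 with vehicles, 7.53, 7.61 and 7.74 with Aβ42, 10.11, 10.22 and 10.32 with AE1-329 and 8.48, 8.55 and 8.38 with both, so that the AE1-329 arrays alone stood apart from the other 3 groups. Its difference was -1.35 ± 0.16 (adjusted p = 0.000521). Il15 fell by 1.12 ± 0.12 with AE1-329 and changed by 0.16 ± 0.12 without it, a difference of -1.28 ± 0.17, and Trim25, a ubiquitin ligase of RNA sensing, fell by 0.91 ± 0.099 and rose by 0.32 ± 0.099, a difference of -1.23 ± 0.14. Rgs2, Pde10a and Cytip differed in the same direction, by -0.92 ± 0.14, -1.07 ± 0.081 and -1.05 ± 0.15. Cytip was at a mean of 6.89 log2 units with vehicles and 11.15 with AE1-329 alone.

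The genes whose change was most increased with AE1-329 include several with a level above all 3 other groups when both agents were given. Treml4, a receptor of myeloid cells, was at 7.15, 7.17 and 7.27 log2 units with AE1-329 and 10.08, 10.26 and 10.31 with both, and at 6.30, 7.00 and 6.98 with vehicles and 7.82, 7.54 and 7.70 with Aβ42. Its rise was 3.02 ± 0.15 with AE1-329 and 0.92 ± 0.15 without it, a difference of 2.10 ± 0.21 (adjusted p = 0.000249). Spic rose by 4.31 ± 0.13 against 2.71 ± 0.13, a difference of 1.60 ± 0.18, and Tarm1, an activating receptor, by 3.79 ± 0.12 against 2.36 ± 0.12, a difference of 1.43 ± 0.16. Slc7a2 rose by 2.55 ± 0.067 against 1.12 ± 0.067 and differed by 1.43 ± 0.095. Arg2 rose by 1.496 ± 0.096 and changed by -0.014 ± 0.096 without AE1-329, a difference of 1.51 ± 0.14, and it was at 9.96, 9.75 and 10.07 with AE1-329, 11.50, 11.37 and 11.40 with both and 9.32, 9.35 and 9.17 with Aβ42 alone. Both genes handle arginine.

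**Figure D5:**
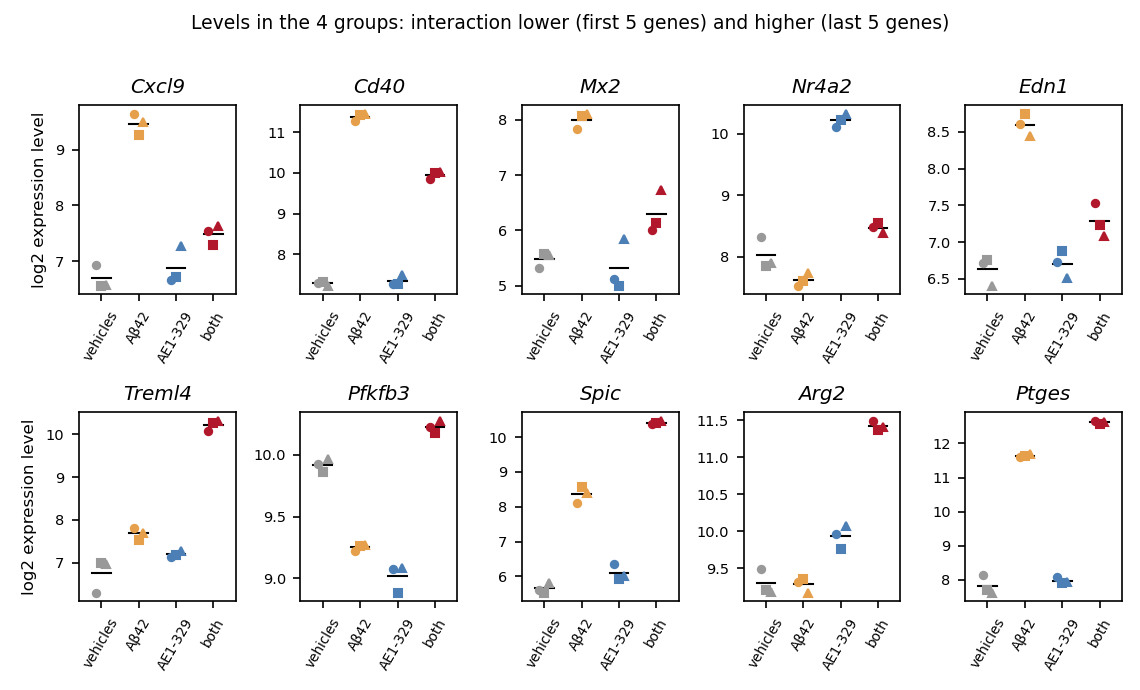
Log2 expression level of 10 genes in each array of the 4 groups, 3 arrays per group, with symbols for the litter (circle 1, square 2, triangle 3) and bars for the group mean; vertical axes differ. Cxcl9, Cd40, Mx2 and Edn1 rise less with both agents than with Aβ42 alone, Nr4a2 is highest with AE1-329 alone, and Treml4, Spic, Arg2 and Ptges are highest with both.

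Pfkfb3 changed in opposite directions: it was at 9.93, 9.86 and 9.97 log2 units with vehicles and 9.22, 9.26 and 9.27 with Aβ42, and at 9.07, 8.88 and 9.09 with AE1-329 and 10.22, 10.17 and 10.28 with both. The difference of 1.87 ± 0.088 had an adjusted p of 6.17e-07. Adgb, the gene of androglobin, also rose by 1.08 ± 0.14 with AE1-329 and fell by 1.02 ± 0.14 without it, a difference of 2.10 ± 0.19. Radx, which acts at replication forks, rose by 1.47 ± 0.11 and changed by -0.089 ± 0.11 without AE1-329 (difference 1.56 ± 0.16), and Stat4 rose by 1.67 ± 0.087 against 0.26 ± 0.087 (difference 1.41 ± 0.12). Serpinb6b changed by -0.14 ± 0.087 with AE1-329, which did not pass, and fell by 1.33 ± 0.087 without it (difference 1.19 ± 0.12). Hif1a rose by 1.12 ± 0.061 against 0.50 ± 0.061, a difference of 0.62 ± 0.086.

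Among inflammatory mediators some differences passed in each direction and others did not pass. Il1b rose by 4.72 ± 0.16 with AE1-329 and 5.84 ± 0.16 without it, a difference of -1.12 ± 0.23 (adjusted p = 0.0226), and its level before Aβ42 was 7.94 on average with AE1-329 and 6.59 with vehicles. This difference missed the threshold without the Aβ42 plus AE1-329 array of litter 2 or 3 or any one Aβ42 array, at adjusted p of up to 0.0683. Cxcl3 differed the other way, by 1.08 ± 0.20, as did Traf1 by 0.97 ± 0.16, Trem1 by 1.04 ± 0.18 and Tnfaip3 by 0.89 ± 0.079. For Tnf and Il6 the differences of 0.34 ± 0.12 and 0.49 ± 0.17 did not pass (adjusted p = 0.281 and 0.246), nor did that of Il10, at 0.24 ± 0.20. Cxcl10 differed by -1.14 ± 0.95 (adjusted p = 0.842), and by 0.023 without the AE1-329 array of litter 3.

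In the prostaglandin pathway the differences that passed were all positive, for 5 of 16 genes against 1.03% of all genes. Ptges rose by 4.64 ± 0.11 with AE1-329 and by 3.82 ± 0.11 without it, a difference of 0.82 ± 0.15 (adjusted p = 0.0132). Ptger4 rose by 0.41 ± 0.070 and changed by -0.11 ± 0.070 without the agonist, a difference of 0.52 ± 0.099 (adjusted p = 0.0161). It was at 9.26, 9.04 and 9.19 log2 units with vehicles and 9.03, 8.99 and 9.14 with Aβ42, above the 3 AE1-329 arrays given above. This difference missed the threshold without the litter 2 array of Aβ42 plus AE1-329, of Aβ42 or of AE1-329, at adjusted p of up to 0.0563. Ptger2 changed by 0.12 ± 0.087 with AE1-329 and fell by 0.56 ± 0.087 without it, a difference of 0.68 ± 0.12. Without the AE1-329 array of litter 2, 3 of the 16 genes passed.

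Irf1 rose less with AE1-329, by 0.82 ± 0.10 against 1.73 ± 0.10 (difference -0.91 ± 0.14), on the probe set that disagreed with the other. Mki67 rose by 0.29 ± 0.091 with AE1-329 and fell by 0.32 ± 0.091 without it, and the difference of 0.61 ± 0.13 passed at an adjusted p of 0.0286 but missed the threshold without any one Aβ42 array, without the vehicle array of litter 1, and without the AE1-329 array of litter 1 or the Aβ42 plus AE1-329 array of litter 2 or 3. For the mitosis list, all 19 differences were positive, with 1 passing, or 7 with the replicate block. For the replication list 19 of 23 were positive and 3 passed, or 11 with the block. Over all genes, 1.03% had a positive difference that passed in the fit without the block. Without the vehicle array of litter 1, 6 of the replication genes passed.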

How the data were processed

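RNA of 12 microglia cultures, 1 per litter and treatment, was hybridised to Affymetrix Mouse Gene 1.0 ST arrays. Each deposited value is the log2 expression of a probe set, and values range from 2.79 to 13.95 with array medians between 6.97 and 7.05. The submitters' processing notes name RMA and Partek 6.5 but not what each did. Whether the authors filtered probe sets or corrected for litter, and which genome build they used, is not given in the sources used here. As RMA usually adjusts background, quantile-normalizes and summarises probes, a change is relative to most other genes. Scanner files were not used, so signal over background is unknown, and precision is limited by the number of arrays. Levels of different genes come from different probes and are not compared, except that cell markers are set roughly against the median of all genes.

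The platform annotation named 1 gene for 21789 of 35556 probe sets, several for 1621 and none for 12146, and only the first were used, with 21698 matched to RefSeq names of GRCm38.p6. For 999 genes with several probe sets the one with the highest mean was kept, and no filter on dim genes was applied.

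In R 4.3.3, limma 3.58.1 (lmFit and eBayes) fitted the means of the 4 groups to the 12 arrays together (8 residual and 4.54 prior degrees of freedom). The litter was not in this fit, so its standard errors and adjusted p include differences between litters. It entered only in the alternative with a replicate block. Tests were two-sided with Benjamini-Hochberg adjustment over all 19938 genes and a threshold of 0.05, after the fit was tested on simulated data. The difference between the Aβ42 responses with and without AE1-329 was the interaction. The submitters' design text gives litters as biological replicates, which pairs same-numbered arrays. As a check, the mean correlation of deviations from group means was 0.326 over 18 same-numbered pairs, from 0.0044 to 0.54, with 17 above 0.1.

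Genes named are the 15 highest and 15 lowest changes whose groups do not overlap, the 10 highest and 10 lowest interactions, the 6 smallest p-values of each gene list and 12 genes always given. Text names a part of these, and predicted genes are counted only. The comparison, the gene lists, the motifs' letters and this rule were chosen with earlier results of these data known, and the list counts are descriptions, without a set test.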

Additional observations from a re-analysis of the deposited data

Results flagged for a closer look

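The Aβ42 response with AE1-329 differed from that without it, by the interaction test, in 206 genes with a higher and 183 with a lower change. Values below are this difference in log2 units and do not say whether a gene's level was lower or higher with AE1-329.

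The Aβ42 change was lower with AE1-329 for Cxcl9 (-2.18), Adamts4 (-1.76), Mx2 (-1.56), Cd40 (-1.49), Edn1 (-1.39), Nr4a2 (-1.35), Olr1 (-1.28), Il15 (-1.28), Trim25 (-1.23), Il1b (-1.12), Pde10a (-1.07), Cytip (-1.05), Ifih1 (-0.99), Rgs2 (-0.92) and Irf1 (-0.91).

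The Aβ42 change was higher with AE1-329 for Adgb (2.10), Treml4 (2.10), Pfkfb3 (1.87), Spic (1.60), Radx (1.56), Arg2 (1.51), Tarm1 (1.43), Slc7a2 (1.43), Stat4 (1.41), Serpinb6b (1.19), Cxcl3 (1.08), Trem1 (1.04), Traf1 (0.97), Tnfaip3 (0.89), Ptges (0.82), Ptger2 (0.68), Hif1a (0.62), Mki67 (0.61) and Ptger4 (0.52).

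Groups of 3 arrays are too small for a test of single outlying arrays.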

How the results depend on the processing

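Alternatives were the litter as a replicate block, genes above the median level alone, a gene's probe sets averaged, every probe set as its own test, a repeated quantile normalization, a robust prior with a mean-variance trend, the 6 arrays compared alone, and leaving out each array. The counts of genes changed by Aβ42 with AE1-329 (1589 to 1715 higher and 1907 to 2097 lower without single arrays of its groups), of those changed without it and of those shared by both stayed within 1.5 times the reported ones under all of these. The interaction counts did not: with the replicate block 344 genes were higher and 333 lower, with all probe sets 136 were higher, and without single arrays 119 to 321 were higher and 118 to 236 lower. Of the list counts given for changes with AE1-329, the block moved by over 1.5 times only those given with it in the text, and others by less. Of the named genes it changed the call of the Irf7 interaction and no other. Of 207 named changes with AE1-329, 11 missed the threshold under some alternative and 2 that had not passed changed sign, both without the AE1-329 array of litter 1. Without single arrays Csf1r ranged from -0.0084 to 0.038 and Ikbkb from -0.032 to 0.0020. Of 39 named interactions, 5 missed it under some alternative, 1 (Irf7) passed it, and that of Cxcl10 changed sign without the AE1-329 array of litter 3, with a range of -1.79 to 0.023 over single arrays left out. With all probe sets, where more tests are adjusted for, Bub1b, Gbp7, Mcm6, Mcm7 and Mki67 and the interactions of Cxcl3, Il1b, Mki67 and Mx2 missed the threshold. Without any second measure of signal over background, small changes of dim genes cannot be separated from probe noise, and 3 litters are the only replication.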
